A study of Sus scrofa with 18 samples.

Results

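The transcripts described here encode enzymes of glycolysis and the 2 subunits of lactate dehydrogenase. They were chosen as all probe sets that the probe table assigns to exactly 1 of 10 listed symbols, GPI, PFKM, ALDOA, TPI1, PGK1, PGAM2, ENO3, ENO1, LDHA and LDHB. Each of the 9 symbols other than ALDOA had 1 such probe set, so 9 of the 6765 genes named on the array are covered. ALDOA is not named in the table used here and has no value below.

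The right ventricular free wall was sampled in 9 pigs, a cross of Hampshire with Yorkshire and Swedish Landrace, in failure and, in the same animals, at baseline. This gave 9 failure and 9 baseline arrays of the 3' type, on which RNA is primed from its poly(A) tail. For pigs 6, 8, 9, 11, 12 and 13 the labels describe the failure sample by 120 min of ischemia (label set 1). For pigs 5, 10 and 14 they give ligation of the coronary arteries of the free wall, with failure set at a right atrial pressure above 20 mmHg (label set 2). No samples taken at the later time without failure were analysed here, so time since the first sample and failure cannot be told apart.

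Glycolysis splits glucose to pyruvate in the cytosol and yields ATP without oxygen. Lactate dehydrogenase turns pyruvate to lactate and back, which regenerates the cofactor that glycolysis needs when oxygen is short. The working heart takes most of its ATP from fatty acids and lactate and leans more on glycolysis in ischemia. Several steps have isoforms: PFKM, PGAM2 and ENO3 are the forms of striated muscle, ENO1 is found in most cells, LDHA is the subunit that prevails in skeletal muscle and LDHB the one that prevails in heart.

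Values are log2 intensities, and array medians lay between 5.59 and 5.66. Cardiomyocyte markers were bright: 9 of 10 (MYH7, MYL2, MYL3, TNNT2, TNNI3, TNNC1, ACTC1, TTN and CKM) were named and had mean levels between 13.55 and 14.95. Which part of the heart was sampled was not tested with them. Of 9 markers of skeletal muscle 5 were named, and 4 of these lay below the median of all tested probe sets, the exception being MYL1 with a mean of 8.05. RNA quality was read from the log2 difference between the 3' and the 5' control probe sets of GAPDH, which grows as transcripts lose their 5' part. It was 3.55 in failure and 2.61 at baseline in pig 5, against 0.31 to 2.17 in failure and 0.61 to 1.49 at baseline in the other 8 pigs, so the arrays of pig 5 stand apart. All 9 members were bright, with mean levels between the 88.9th and the 99.9th percentile of tested probe sets.

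Between failure and baseline none of the 9 transcripts had a difference that passed the test against the spread of paired changes between pigs. In a limma fit with pig as a block, 0 of 9 member probe sets passed an adjusted p of 0.05, where 0.0668% of all 23935 tested probe sets did, 0.0209% higher and 0.046% lower in failure. At an unadjusted p under 0.05 there were also 0 of 9, against 6.14% of all tested probe sets, and 0 of 9 without the block, against 1.84%. The mean change lay below 0 in 9 of 9 members, between -0.12 for TPI1 and -0.016 for PGK1 (LDHB lay as close to 0), with a median of -0.027, beside a median of 0.00034 over all tested probe sets. Below 0 lay 49.8% of all tested probe sets. The signs of the members are not independent, since they come from the same arrays. The count was 4 of 9 with the GAPDH difference as a covariate and 6 without pig 5 or without pig 13. The absolute change had a median of 0.027 over the members and of 0.054 over all tested probe sets. The 95% intervals of the 9 members lay between -0.33 and 0.20, and the lower end of that of TPI1 corresponds to a 1.26-fold decrease. In whole tissue, fewer cells of a type and less RNA per cell cannot be told apart.

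**Figure D1:**
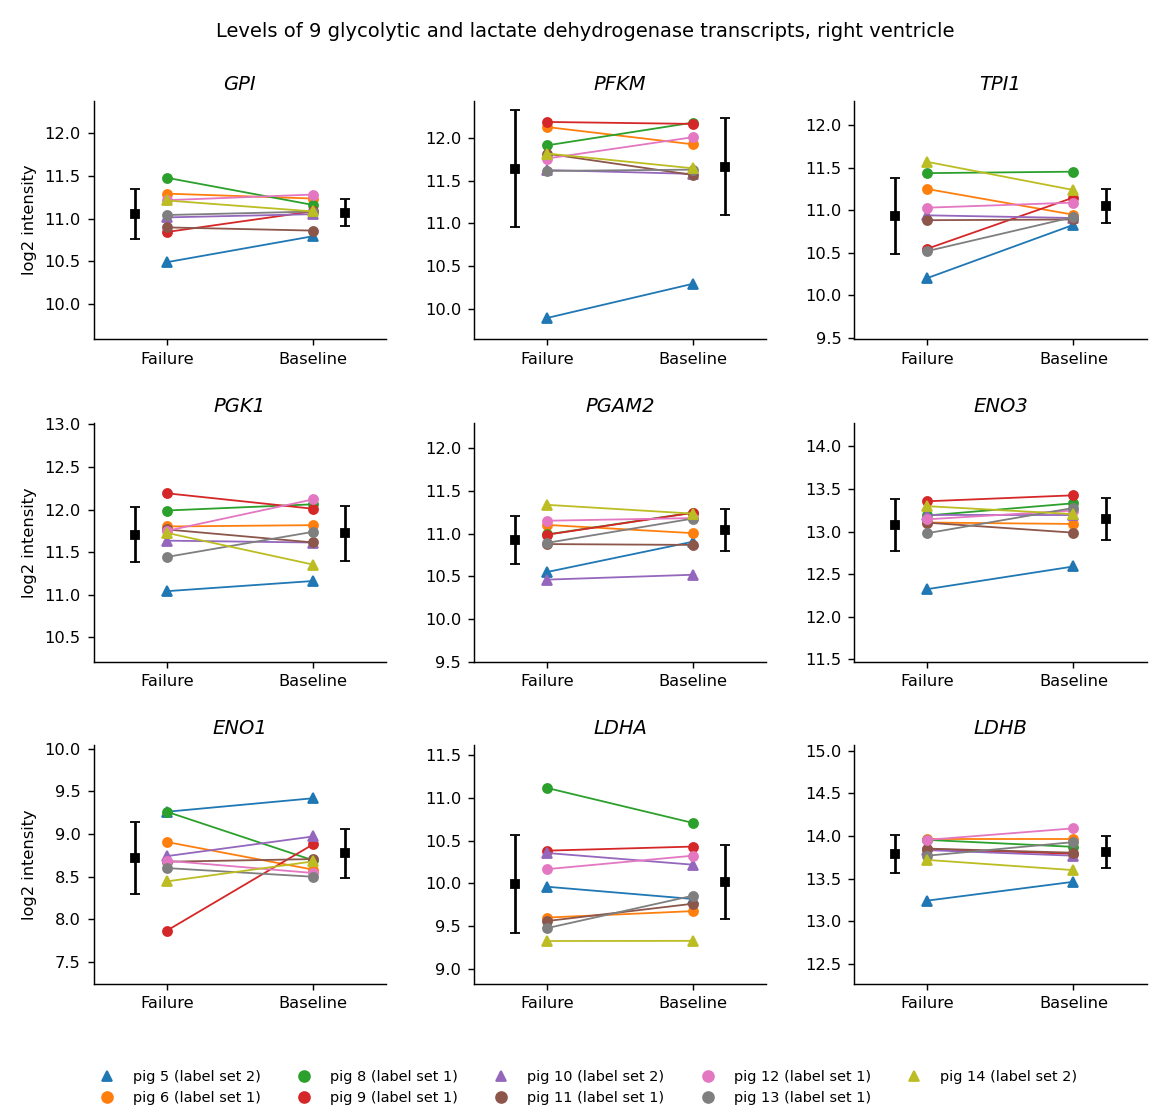
Log2 intensity (vertical axes, each spanning the same range of log2 units) of the 9 transcripts in failure and at baseline, with a line for each pig and black squares for the mean with its SD (n = 9). Failure and baseline values overlap for every member. GPI, PFKM, TPI1, PGK1, ENO3 and LDHB are lowest in pig 5 in both conditions.

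Upper glycolysis was represented by GPI, PFKM and TPI1. GPI, which turns glucose 6-phosphate into fructose 6-phosphate, had a lowest, median and highest level of 10.49, 11.04 and 11.48 in failure, against 10.79, 11.08 and 11.28 at baseline. The lowest value of each condition was that of pig 5 and the ranges overlapped. The GPI change was -0.017 (SE 0.066, 95% interval -0.16 to 0.13, limma adjusted p = 0.988), with 4 pigs above 0 and 5 below. It ran from -0.30 in pig 5 to 0.32 in pig 8.

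PFKM, the muscle form of phosphofructokinase and the main control point of the pathway, had levels of 9.89, 11.82 and 12.19 in failure (lowest, median, highest), against 10.29, 11.65 and 12.18 at baseline. Pig 5 lay at the lowest value in both conditions, more than 1 log2 unit below the other 8 pigs. The PFKM change was -0.027 (SE 0.074, interval -0.19 to 0.13, limma adjusted p = 0.978), with extremes of -0.40 in pig 5 and 0.25 in pig 11. Without pig 5 the change was 0.020. PFKL and PFKP are the liver and platelet forms. The PFKL level was 6.57 ± 0.31 in failure and 6.62 ± 0.21 at baseline (SD, n = 9), a change of -0.048 (interval -0.25 to 0.15, limma adjusted p = 0.965). The PFKP level was 6.46 ± 0.36 in failure and 6.57 ± 0.27 at baseline, a change of -0.11 (interval -0.30 to 0.080, limma adjusted p = 0.914).

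TPI1, which interconverts the triose phosphates made by aldolase, had levels of 10.20, 10.94 and 11.57 in failure, against 10.83, 10.95 and 11.45 at baseline. The failure values were spread more widely, with an SD of 0.45 in failure and of 0.20 at baseline (n = 9 each), a difference in spread that was not tested. Its change of -0.12 (SE 0.10, interval -0.33 to 0.098, limma adjusted p = 0.916) was close to that of PGAM2. Without pig 5 the TPI1 change was -0.053 and without pig 9 it was -0.056. Pigs 5 and 9 contributed changes of -0.63 and -0.60, pig 13 one of -0.40, and pigs 6 and 14 changes of 0.30 and 0.33.

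In lower glycolysis PGK1, which forms ATP from 1,3-bisphosphoglycerate, had levels of 11.04, 11.75 and 12.19 in failure, against 11.16, 11.74 and 12.12 at baseline. Its change was -0.016 (SE 0.075, interval -0.18 to 0.14, limma adjusted p = 0.991), from -0.37 in pig 12 to 0.37 in pig 14. PGAM2, the muscle form of phosphoglycerate mutase, had levels of 10.46, 10.99 and 11.34 in failure, against 10.52, 11.18 and 11.25 at baseline. The PGAM2 change was -0.12 (SE 0.064, interval -0.25 to 0.023, limma adjusted p = 0.859, unadjusted p = 0.0949), lower in 6 pigs and higher in 3. This was the smallest p among the members. PGAM1, the form of most other tissues, is not named in the table used here.

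The enolases make phosphoenolpyruvate. ENO3 had levels of 12.32, 13.14 and 13.36 in failure, against 12.59, 13.20 and 13.43 at baseline. Its lowest value in each condition was again that of pig 5. The ENO3 change was -0.072 (SE 0.059, interval -0.20 to 0.055, limma adjusted p = 0.916), from -0.30 in pig 13 to 0.12 in pig 11. ENO1 had levels of 7.87, 8.69 and 9.26 in failure, against 8.50, 8.69 and 9.42 at baseline. The failure value of pig 9 was the lowest of all 18 ENO1 values, and here pig 5 was at the top at baseline. The ENO1 change was -0.059 (SE 0.12, interval -0.32 to 0.20, limma adjusted p = 0.971), with extremes of -1.01 in pig 9 and 0.57 in pig 8. Without pig 9 it was 0.061.

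LDHA had levels of 9.32, 9.96 and 11.12 in failure, against 9.33, 9.86 and 10.71 at baseline. Its highest level in each condition was that of pig 8 and its lowest that of pig 14. The LDHA change was -0.020 (SE 0.074, interval -0.18 to 0.14, limma adjusted p = 0.988), from -0.38 in pig 13 to 0.41 in pig 8. LDHB had levels of 13.24, 13.85 and 13.97 in failure, against 13.46, 13.80 and 14.09 at baseline. The LDHB change was -0.016 (SE 0.056, interval -0.14 to 0.10, limma adjusted p = 0.985), from -0.22 in pig 5 to 0.12 in pig 14. LDHB was above 0 in 5 pigs, below in 3 and equal on both arrays of pig 6. The highest value of any tested probe set was 15.17, and signals near that limit can be compressed, which was not tested for LDHB and ENO3. The RefSeq gene table of assembly Sscrofa11.1 holds 2 entries with the symbol LDHB, so the signal of the LDHB probe set may not come from a single locus.

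**Figure D2:**
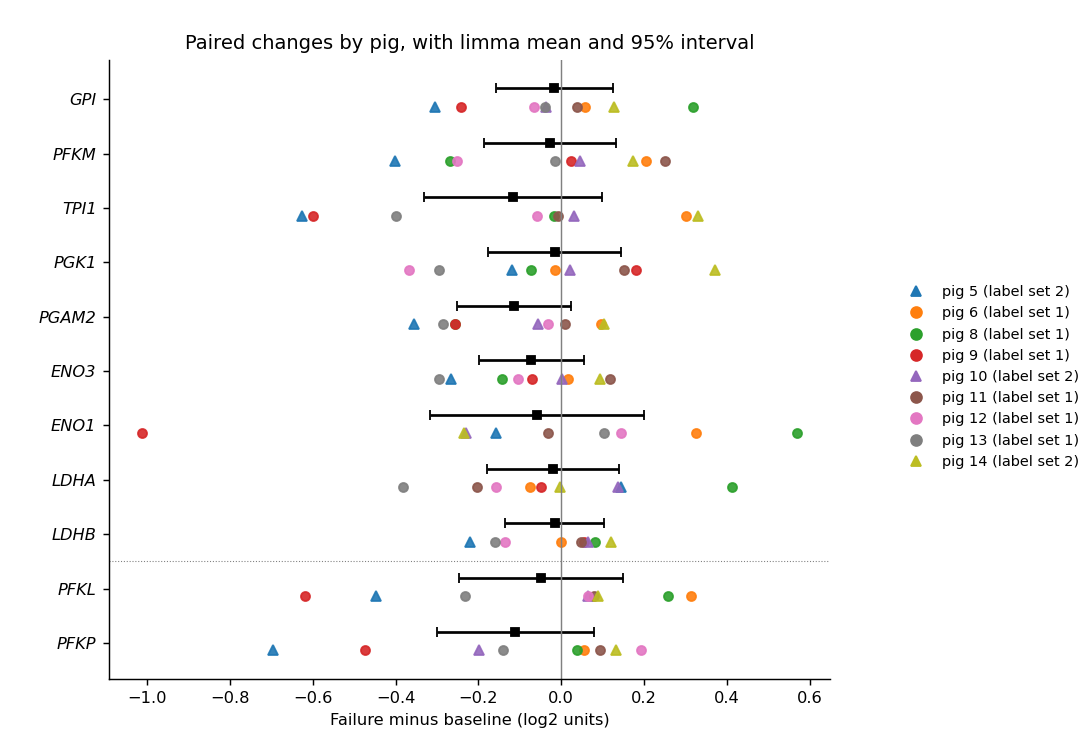
Failure minus baseline in log2 units (horizontal axis) for the 9 members and, below the dotted line, for PFKL and PFKP. Coloured points are pigs and black squares are limma means with 95% intervals. All intervals include 0, and ENO1 has the widest spread, from -1.01 to 0.57.

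The members differed in how much their changes varied between pigs. The SD of the change was 0.12 for LDHB and 0.15 for ENO3, at the 7.18th and 14.8th percentile of all tested probe sets, against 0.35 for TPI1 and 0.45 for ENO1, at the 89.3rd and 95.7th percentile (n = 9 pigs). The other 5 members lay between the 28.9th and the 58.2nd percentile. Among isoforms, the SD was higher for ENO1 than for ENO3, for LDHA (0.23) than for LDHB, and for PFKL (0.32) and PFKP (0.30) than for PFKM (0.23). These differences in spread were not tested, nor was the part of signal level in them.

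The balance of isoforms was compared as the paired change of the muscle form minus that of its partner, with LDHA on top for lactate dehydrogenase. Levels of different probe sets cannot be set against each other, but a change in their difference can be measured. LDHA minus LDHB had a mean of -0.0035 ± 0.22 (SD, n = 9; p = 0.961 in a two-sided exact permutation test by sign flips), above 0 in 3 pigs and below in 6, with a 95% interval of -0.16 to 0.17. The highest differences were those of pigs 5 and 8, at 0.37 and 0.33, and the lowest that of pig 11 at -0.25. ENO3 minus ENO1 had a mean of -0.014 ± 0.49 (exact permutation p = 0.930; interval -0.38 to 0.34), from -0.71 in pig 8 to 0.94 in pig 9.

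PFKM minus PFKL had a mean of 0.021 ± 0.33 (exact permutation p = 0.859; interval -0.22 to 0.28) and PFKM minus PFKP one of 0.084 ± 0.29 (exact permutation p = 0.414; interval -0.14 to 0.29), which was above 0 in 7 of 9 pigs. Pig 9 had the highest value for the enolases and for both phosphofructokinase pairs. Pig 8 had the lowest value for the enolases and for PFKM minus PFKL. Adjusted over the 4 pairs compared, all p were 0.961, where the smallest unadjusted p that 9 pigs allow is 0.0039. The interval for ENO3 minus ENO1 was the widest of the 4 and that for LDHA minus LDHB the narrowest.

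**Figure D3:**
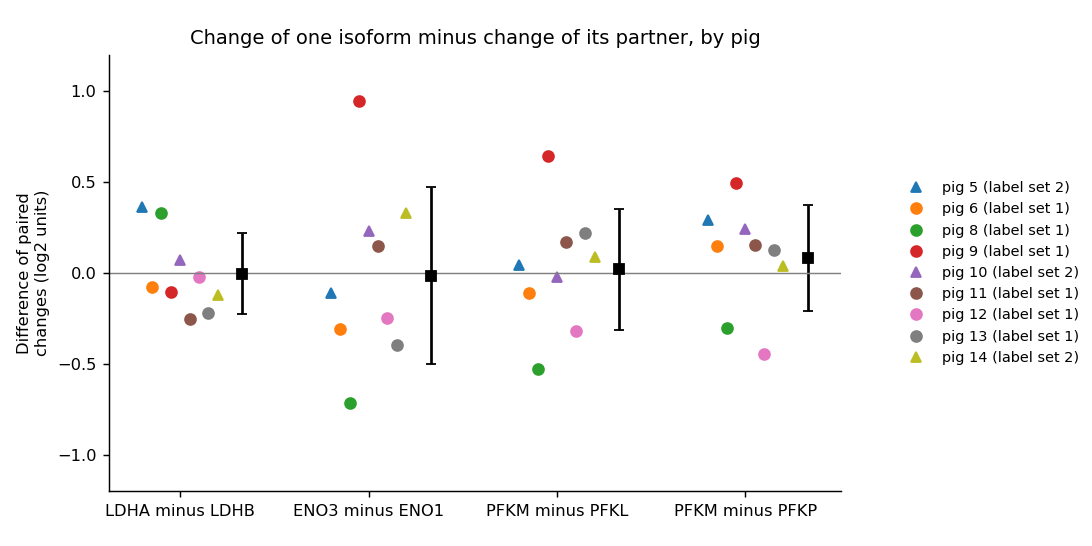
Difference of the paired changes of isoforms in log2 units (vertical axis) for 4 pairs, with a coloured point for each pig and black squares for the mean with its SD (n = 9). Each pair has pigs on both sides of 0, with pig 9 at 0.94 for ENO3 minus ENO1.

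Pigs with a high level of LDHA at baseline also had a high level in failure: it was 11.12 in failure and 10.71 at baseline in pig 8, 10.38 and 10.43 in pig 9, and 9.32 and 9.33 in pig 14. Over the 9 pigs the failure level of LDHA correlated with its baseline level with r = 0.933 (exact permutation p = 0.000446, adjusted p = 0.0237 over all tested probe sets) and rho = 0.867 (exact permutation p = 0.00451). With pigs 8 and 9, the farthest from the median, left out, r was 0.872 (exact permutation p = 0.00813), and within label set 1 it was 0.958 (6 pigs, exact permutation p = 0.00833). Label set 2, with 3 pigs, has too few for a value. Over all tested probe sets the median of r was 0.511, and 9.07% passed the adjusted threshold.

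PFKM (r = 0.949, exact permutation p = 0.00438, adjusted p = 0.0493; rho = 0.733, exact permutation p = 0.0311) and LDHB (r = 0.835, exact permutation p = 0.00197, adjusted p = 0.0376; rho = 0.817, exact permutation p = 0.0108) also passed. Both rest in part on pig 5: without it and 1 further pig r was 0.739 for PFKM (exact permutation p = 0.0639) and 0.665 for LDHB (exact permutation p = 0.0968), and within label set 1 it was 0.605 and 0.458. ENO3, with r = 0.879 over 9 pigs (exact permutation p = 0.0150, adjusted p = 0.0841; rho = 0.583, exact permutation p = 0.108), rests on pigs 5 and 9, since its r was 0.094 when these were left out. ENO1 had the lowest value of the members, r = 0.262 (exact permutation p = 0.458, adjusted p = 0.615; rho = 0.217, exact permutation p = 0.581), and its r was -0.52 when pigs 5 and 10 were left out. In all, 3 of 9 members passed the adjusted threshold, against 9.07% of all tested probe sets. An unadjusted p under 0.05 was had by 7 of 9, against 32% of all tested probe sets. The members are brighter than most probe sets, and the share among probe sets of like level was not computed. Whether the higher shares are particular to the members thus cannot be told from these counts.

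**Figure D4:**
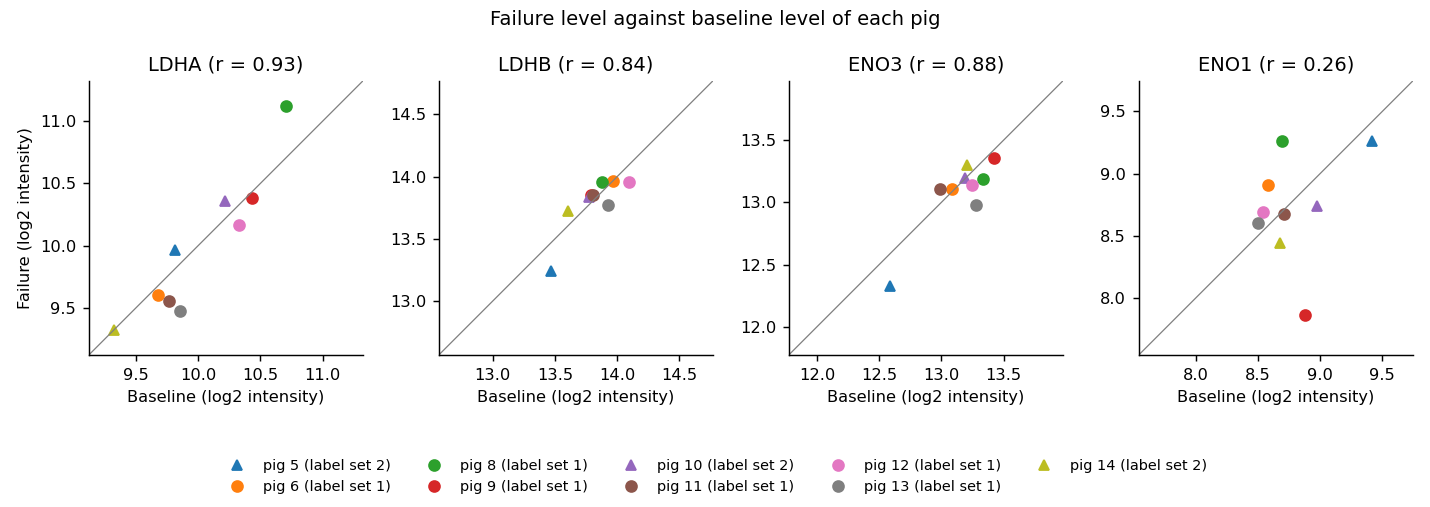
Failure level against baseline level (log2 intensity on both axes) of LDHA, LDHB, ENO3 and ENO1, with a point for each pig and a grey line where both are equal. LDHA points follow the line over its whole range (r = 0.933), whereas ENO1 points do not (r = 0.262).

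The changes of the members were set beside that of RNA quality, and no relation passed after adjustment over all tested probe sets. The GAPDH 3' minus 5' difference was higher in failure by 0.24 ± 0.56 (SD, n = 9; higher in 6 pigs; p = 0.246 in the same exact permutation test). In pigs 5, 12 and 13, where it was higher in failure by 0.94, 0.55 and 1.18, 8 of 9 members lay below 0 in each, with medians of -0.27, -0.10 and -0.29. In pig 14, with a difference of -0.33, 7 of 9 members lay above 0, with a median of 0.12. Pig 9, with the lowest difference of -0.44, did not have this pattern: 6 of 9 members lay below 0, with a median of -0.070. The other 4 pigs, with differences between -0.089 and 0.25, had 4 to 6 members above 0. Over all tested probe sets 45.9% to 51.3% lay below 0 in each pig. With a second pair of GAPDH controls (named Ss on the array) pigs 5 and 12 did not stand apart, both with a difference of 0.21. The Ss difference was 0.24 in pig 8, 0.17 in pig 6, 0.069 in pig 14, 0.68 in pig 13 and -0.48 in pig 9. With a further pair of GAPDH controls (named _s_at) pigs 5, 12 and 13 had the highest differences, at 0.96, 0.54 and 1.53. The other pigs lay between -0.54 in pig 9 and 0.23 in pig 8, with pig 14 at -0.10. Pigs 5 and 12 thus stood apart with the _s_at pair as well, but not with the Ss pair.

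The changes of 8 of 9 members had a negative r with the change of the GAPDH 3' minus 5' difference, and 47.8% of all tested probe sets did. With the Ss pair 6 of 9 members had a negative r, against 47.9% of all tested probe sets. The exceptions were GPI (0.223), TPI1 (0.027) and ENO1 (0.671). With the _s_at pair 8 of 9 had a negative r, against 47.4%. At an unadjusted exact permutation p under 0.05 there were 3 of 9, all negative, against 7.14% of all tested probe sets with a negative r. With the _s_at pair there were also 3 of 9, all negative, against 6.31% of all tested probe sets with a negative r. With the Ss pair there was 1 of 9, PGK1 (r = -0.665, exact permutation p = 0.0481), against 5.12%. With that pair ENO3 had r = -0.638 (exact permutation p = 0.0605) and LDHB r = -0.577 (exact permutation p = 0.110). None passed adjusted over all probe sets with any pair. Of all tested probe sets 0.238% did with the first pair, 0 with Ss and 0 with _s_at. With the first pair LDHB had r = -0.889 (exact permutation p = 0.00261, adjusted p = 0.130) and rho = -0.717 (exact permutation p = 0.0369). Its r was -0.735 when pigs 5 and 13 were left out and -0.836 within label set 1. ENO3 had r = -0.847 (exact permutation p = 0.00478, adjusted p = 0.165) and rho = -0.783 (exact permutation p = 0.0172). Its r was -0.514 without these pigs and -0.754 within label set 1.

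PGK1 had r = -0.838 (exact permutation p = 0.00495, adjusted p = 0.168) and rho = -0.933 (exact permutation p = 0.000750). Its r was -0.932 when both pigs were left out and -0.879 within label set 1. ENO1 was the exception in sign, with r = 0.438 (exact permutation p = 0.243, adjusted p = 0.647) and rho = 0.600 (exact permutation p = 0.0968). With the GAPDH difference of each array as a covariate in the limma fit, 4 of 9 members had a change below 0, against 9 of 9 without it, and the median was 0.0018. The 4 were TPI1 (-0.052), PGAM2 (-0.074), ENO3 (-0.020) and ENO1 (-0.14), and 0 of 9 passed.

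**Figure D5:**
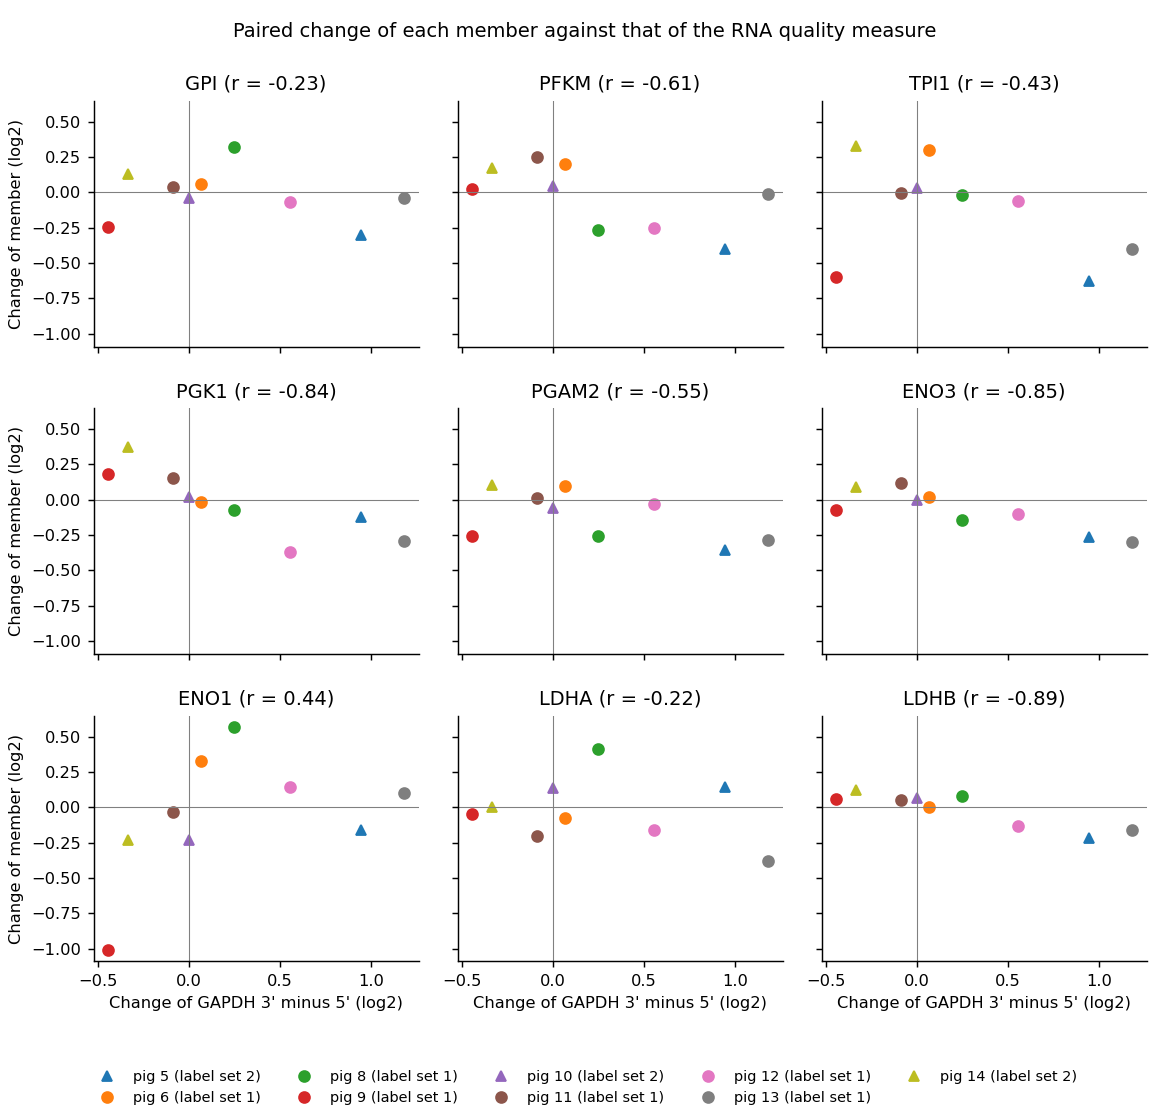
Failure minus baseline of each member in log2 units (vertical axes) against failure minus baseline of the GAPDH 3' minus 5' difference in log2 units (horizontal axes), with a point for each pig. PGK1, ENO3 and LDHB slope down, with r between -0.889 and -0.838, and ENO1 does not.

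The changes of the members were also compared with each other, in 36 pairs over the 9 pigs. The r ran from -0.481 (PGK1 and ENO1) to 0.887 (TPI1 and PGAM2), with a median of 0.404 over all 9 pigs and of 0.239 within label set 1. The same was not computed for pairs of other probe sets, so nothing particular to the members can be read from it. TPI1 and PGAM2 had an exact permutation p of 0.000995 (adjusted p = 0.0358 over the 36 pairs) and rho = 0.90 (exact permutation p = 0.00203, adjusted p = 0.0554). For this pair r was 0.838 without pigs 5 and 9 and 0.791 within label set 1. The muscle forms PGAM2 and ENO3 had r = 0.855 (exact permutation p = 0.00411, adjusted p = 0.0740; rho = 0.850, exact permutation p = 0.00607). For these r was 0.742 when pigs 5 and 13 were left out and 0.751 within label set 1. All of these changes come from the same 18 arrays and so share their RNA quality. ENO3 and ENO1 (r = -0.139, exact permutation p = 0.737, adjusted p = 0.780; rho = -0.267, exact permutation p = 0.493) and LDHA and LDHB (r = 0.340, exact permutation p = 0.371, adjusted p = 0.581; rho = 0.417, exact permutation p = 0.270) did not pass. For these isoform pairs r was -0.173 without pigs 5 and 13 and -0.164 without pigs 8 and 13.

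Among the 6756 other genes, those with the most similar paired changes were named by Pearson's r over the 9 pigs, as a description. The highest of 6756 values over 9 pigs is high by the choice itself. All changes also share the RNA quality of the same arrays, so no shared regulation can be read from these r. For LDHA the closest were ADD3 (r = 0.936), a cytoskeletal adducin, XIRP2 (0.905), an actin-binding protein of striated muscle, and PRM2 (0.902), a sperm protamine. PRM2 had a mean level of 5.35, below the lowest array median of 5.59. For LDHB they were the arginyl-tRNA synthetase RARS (0.973), the transcription factor KLF11 (0.962) and the ribosomal protein RPS2 (0.958). For ENO3 they were CCDC124 (0.946), the lysyl-tRNA synthetase KARS (0.939) and PRKAG1 (0.937), a subunit of AMP-activated protein kinase.

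For PGAM2 the closest genes were MACROD1 (0.972), SCNN1A (0.944) and DDB1 (0.923), of which SCNN1A was dim at a mean level of 3.94. For ENO1 they were PEA15 (0.979), the inhibitory G protein subunit GNAI2 (0.977) and, with 0.968, PPP1R16B, which regulates a protein phosphatase. PPP1R16B passed the limma threshold for failure against baseline (-0.59, adjusted p = 0.0176). The other genes named in this way did not pass, with adjusted p between 0.853 and 0.997.

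The response of the members was compared between label sets. In the interaction of the limma model 0 of 9 members passed, as did 0% of all tested probe sets, and 0 of 9 had an unadjusted p under 0.05, against 5.67% of all tested probe sets. LDHA had the smallest p, with a change of 0.093 ± 0.083 (SD, n = 3) in label set 2 and of -0.076 ± 0.27 (SD, n = 6) in label set 1 (limma adjusted p = 0.957). The PGK1 change was 0.092 ± 0.25 in label set 2 and -0.070 ± 0.23 in label set 1 (limma adjusted p = 0.960). The ENO1 change was -0.21 ± 0.043 in label set 2 and 0.016 ± 0.54 in label set 1 (limma adjusted p = 0.967).

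The rest of the pathway was read from a list of transporters, other glycolytic enzymes, pyruvate entry and glycogen genes, of which 36 genes with 54 probe sets were named. In the same limma fit 0 of 54 rose and 0 fell, 2 had an unadjusted p under 0.05 (both PDK4), and the median change was -0.020, with 20 above 0 and 34 below. Over all tested probe sets 49.8% lay below 0. The medians of the 9 groups of this list lay between -0.062 for pyruvate entry and 0.028 for glucose and lactate transport, and differences between groups were not tested. PDK4, a kinase that shuts pyruvate dehydrogenase, had 12.38 ± 0.55 in failure and 12.16 ± 0.62 at baseline (SD, n = 9), a change of 0.22 (SE 0.072, limma adjusted p = 0.571). PYGM encodes muscle glycogen phosphorylase, and 1 of its probe sets had a change of 0.14 (SE 0.077, limma adjusted p = 0.853) at a mean level of 4.11, while the other 3 had changes between -0.050 and 0.060. The lowest p below 0 were those of DLAT, a subunit of pyruvate dehydrogenase (-0.17, SE 0.084, limma adjusted p = 0.830), and PDK3, another of its kinases (-0.15, SE 0.081, limma adjusted p = 0.853). GAPDH, the enzyme between TPI1 and PGK1, lay at 14.80 ± 0.062 in failure and 14.82 ± 0.058 at baseline (SD, n = 9) at its brightest probe set, with a change of -0.018 (SE 0.049, limma adjusted p = 0.978). This level is near the top of the range, where signals can be compressed. The other GAPDH probe sets had changes between -0.15 and 0.036, with 0 past the threshold. The one at -0.15, with a mean level of 8.26, ran from -1.74 to 0.89 across pigs.

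Red blood cells depend on glycolysis for ATP. Their 5 markers (HBB, HBM, HBE1, ALAS2 and AHSP) had changes from -1.27 to -0.24 with a median of -0.83. Of these ALAS2 (-1.27), AHSP (-1.19) and HBM (-0.83) fell past the limma threshold. Their summed level ran from 8.64 to 9.86 in failure and from 9.49 to 11.08 at baseline. Their part in the changes of the members was not tested. Named markers of skeletal muscle (5 genes), smooth muscle (3), fibroblasts (4), endothelium (5), adipocytes (3) and monocytes and neutrophils (5) had median changes between 0.014 and 0.14, with 0 past the threshold. The 9 cardiomyocyte markers had a median change of -0.042, with 7 below 0 and 0 past the threshold.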

How the data were processed

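RNA of the right ventricle of 9 pigs was measured in failure and at baseline on 18 arrays. Extraction used Trizol and labelling a 3' IVT kit, per the labels' protocols. The values the authors deposited are log2 intensities per probe set. The submitters' processing notes name Partek. How background was corrected and how arrays were normalized and probes summarized is not given in the sources used here. Precision is limited by the number of arrays.

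Of 24123 probe sets 188 controls were left out and 23935 tested, with no filter and no further normalization. Of these 10069 had 1 gene symbol, 198 several and 13668 were not listed. All 9 member IDs matched the RefSeq table of Sscrofa11.1. All 18 columns were used. Failure minus baseline was tested with limma 3.58.1 in R 4.3.3, with pig as a block and p adjusted by Benjamini-Hochberg over the 23935 probe sets, and label sets by an interaction. Pairing comes from the pig number in the labels, and deviations of same-numbered samples correlated by 0.449 to 0.75. Each baseline array correlated best with the failure array of its own pig. Correlations and isoform differences used exact permutation tests, two-sided, that enumerate all orders or signs in numpy 2.4.6. Those with RNA quality were planned with adjustment over the members and are given adjusted over all tested probe sets. Intervals of isoform differences invert the sign-flip test. Scripts were tested on simulated data.

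Named were all members, their partners PGAM1, PFKL and PFKP, wider pathway genes past the threshold or otherwise the 2 with the smallest p in each direction, GAPDH, and for each of LDHA, LDHB, ENO3, ENO1 and PGAM2 the 3 genes with the most similar paired change. The members and lists were chosen with earlier results of these data known. Alternatives were no block, other scaling, a filter on dim probe sets, a trended variance, a GAPDH covariate, each label set alone, and each pig left out. Other measures of RNA quality and rank correlation were added after seeing the data.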

Additional observations from a re-analysis of the deposited data

Results flagged for a closer look

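In the members 4 levels lay apart from the rest of their group, judged by the gap to the nearest value as a share of the group's range, and all belong to pig 5. PFKM was 9.89 in failure, against 11.62 to 12.19 in the other 8 pigs, and 10.29 at baseline, against 11.57 to 12.18. ENO3 was 12.32 in failure, where the other pigs had 12.98 to 13.36. LDHB was 13.24 in failure, where the other pigs had 13.72 to 13.97. Chance marks about 1 in 20 groups, or 1.65 of the 33 groups examined, and 4 were marked. The groups hold the same pigs and are not independent, so the excess over 1.65 cannot be read as a test. Pig 5 also had the highest GAPDH 3' minus 5' difference in both conditions, at 3.55 in failure and 2.61 at baseline.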

How the results depend on the processing

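The count of members past the limma threshold was 0 under all alternatives run, and so were the counts for the wider pathway, the label set interaction and the RNA quality relations. The paired fit was the one reported, and with no replicate block 0 of 9 members passed (0 at an unadjusted p under 0.05). Of 162 member changes under alternatives 36 came from settings that leave the estimate as it is. Of the other 126 changes 104 kept their direction and 22 did not, and the lowest adjusted p was 0.755. With the GAPDH covariate GPI was at 0.0018, PFKM at 0.033, PGK1 at 0.067, LDHA at 0.0018 and LDHB at 0.031. In label set 2 alone PGK1 was at 0.092 and LDHA at 0.093, and in label set 1 alone GPI was at 0.011 and ENO1 at 0.016. Quantile normalization put LDHB at 0.0031. Leaving out 1 pig at a time gave -0.059 to 0.019 for GPI, -0.061 to 0.020 for PFKM, -0.064 to 0.028 for PGK1, -0.14 to 0.061 for ENO1, -0.073 to 0.026 for LDHA and -0.033 to 0.0096 for LDHB. It gave -0.050 to 0.028 for LDHA minus LDHB, -0.13 to 0.074 for ENO3 minus ENO1 and -0.056 to 0.090 for PFKM minus PFKL. TPI1 (-0.17 to -0.053), PGAM2 (-0.14 to -0.085) and ENO3 (-0.096 to -0.044) lay below 0 and PFKM minus PFKP (0.032 to 0.15) above 0 whichever pig was left out. The values nearest 0 were those without pig 5 for TPI1 and PGAM2, pig 13 for ENO3 and pig 9 for PFKM minus PFKP. With the covariate TPI1 was at -0.052 and ENO3 at -0.020. The number of members below 0 was 4 with the covariate, 6 without pig 5 or without pig 13, and 7 to 9 without any other 1 pig. Over all tested probe sets the count past the threshold was 16, against 0 with no replicate block or in label set 2 alone, 3 in label set 1 alone, 9 with the covariate and 2 to 26 when 1 pig was left out. The cause was not tested.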
